A study of Homo sapiens with 2 samples.

Results

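The 39 clustered HOX genes were examined in a list of Flag ChIP peaks from PLC/PRF/5 cells. PLC/PRF/5 is an established line grown from a human liver cancer, and here the cells carried a lentivirus for overexpression of ZFP64, a zinc finger protein. Members were taken by symbol, as the HOXA, HOXB, HOXC and HOXD genes with a number, and they made up 39 of 19974 protein-coding genes. The study held 2 libraries, both from these overexpressing cells: 1 Flag ChIP, made from sonicated chromatin pulled down with a Flag antibody, and 1 input, for which no antibody was used. The ChIP protocol in the labels speaks of ZFP64-DNA complexes, and the label of the antibody reads Flag. No Flag ChIP of cells without the tagged protein was analysed here, so a peak cannot be told apart from nonspecific signal of the antibody. Neither library had a replicate, so no value has a replicate error, no test was made, and the intervals cover counting error only. The list held 6373 peaks, numbered without a gap, with a median fold of 6.56 over background, a median width of 506 bp and a highest q-value of 0.0465.

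HOX genes encode homeodomain transcription factors that give cells their position along the body axis. They lie in 4 clusters, and within a cluster the order of the genes follows the order in which they are used from head to tail. Genes of the same number in different clusters are paralogs and form a paralog group. Polycomb complexes hold HOX genes silent, while the trithorax-type histone methyltransferase KMT2A keeps them active. In leukaemia cells with a rearranged KMT2A gene, ZFP64 is known as an activator of the KMT2A promoter, and HOXA genes are well-known targets of the fusion protein.

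A peak was assigned to 3 of the 39 HOX genes, HOXA5, HOXA13 and HOXC4, each with 1 peak. This is 7.69% of the members (exact binomial 95% interval 1.62 to 20.9), beside 23.4% of all protein-coding genes, a value above the interval. All 3 peaks were classed as promoter peaks by the authors, and 20.3% of all protein-coding genes had a peak of that class, a value inside the interval. Neighbouring HOX genes are not independent, so this interval understates the error. The 10 HOXB genes and the 9 HOXD genes had no assigned peak, and counts of 0 allow shares of up to 30% and 33.3% there, taken as 3 counts of the total, or 30.8% and 33.6% by the exact interval. In the HOXA cluster 2 of 11 genes had a peak and in the HOXC cluster 1 of 9. The 3 genes belong to different paralog groups, 5, 13 and 4. None of the 13 paralog groups thus had more than 1 gene with a peak. With so few genes called, that was likely in advance, and it shows no pattern by paralog group.

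Inside the spans from the first to the last gene of each cluster, 4 peaks were found, whatever gene they were assigned to. The fourth was assigned to HOTAIRM1, a long noncoding RNA gene of the HOXA cluster known from myeloid cells. The spans together measured 0.528 Mb, and the 4 peaks covered 2817 bp of them. Peak density was 7.58 per Mb (exact Poisson 95% interval 2.06 to 19.4), beside 2.10 per Mb over all chromosomes from first to last gene. The spans are rich in genes, with 79.6 protein-coding genes per Mb against 6.59 over all chromosomes. Per protein-coding gene there were 0.0952 peaks in the spans and 0.319 over all chromosomes. With 4 peaks, the interval per Mb reached down to the value over all chromosomes.

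**Figure D1:**
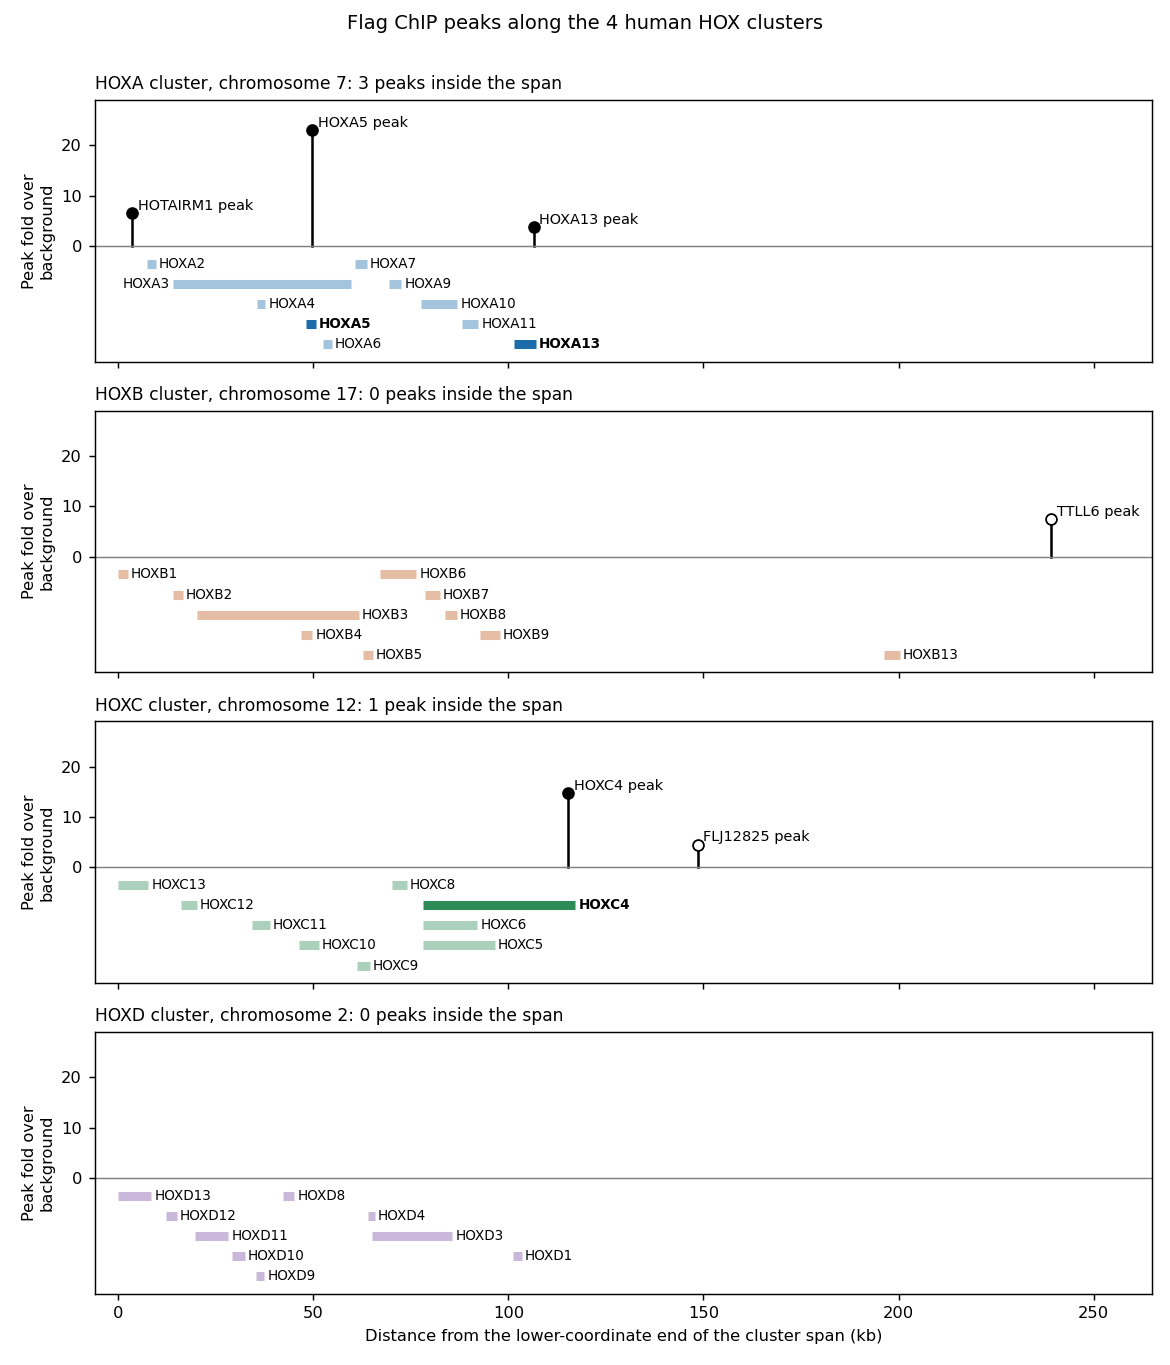
HOX genes (bars, with 1 gene not drawn; in full colour where a peak was assigned) and Flag ChIP peaks (stems; filled inside the cluster span, open outside) along the 4 clusters, with the distance in kb from the lower end of the cluster span on the horizontal axis and the deposited fold on the vertical axis. The HOXA span holds 3 peaks, the HOXC span 1, and the HOXB and HOXD spans 0.

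HOXA5, a regulator of lung and airway development, had the strongest peak of the clusters. It spanned chr7:27141947-27143378 (hg38), 1432 bp, and overlapped an annotated start of the gene on the minus strand. That start, at 27142775, belongs to a transcript of 969 bp, and the summit lay 342 bp downstream of it. The deposited fold was 23.1 and the q-value 7.96e-68. Recovered from fold and p-value, 60 ChIP fragments lay at the summit (exact Poisson 95% interval 45.8 to 77.2) over an expected background of 1.64. The peak ranked 521 of 6373 by fold, above 91.8% of all peaks, and 92.3% of all peaks were narrower. In the RefSeq gene table the summit lay 1381 bp from the lower and 1248 bp from the upper end of HOXA5. On the minus strand the upper end, at 27143681, is the start, and the peak ended below it. The same peak also overlapped the long transcripts of HOXA3, a patterning factor of the pharyngeal organs, and the antisense gene HOXA-AS3. It ended 2018 bp below HOXA6, a mid-cluster gene. A peak here was assigned to HOXA5 by nearness to a start, and that does not show which of these genes it acts on, if any.

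HOXC4, a paralog group 4 gene known from lymphoid cells, had the next strongest peak. It spanned chr12:54053768-54054404, 637 bp, over an annotated start on the plus strand, with the summit 197 bp downstream. Its fold was 14.8 and its q-value 1.71e-35, from 38 fragments (26.9 to 52.2) over a background of 1.64. It stood above 84.5% of all peaks. The background was 1.64 at both HOXA5 and HOXC4. The intervals of their fragment counts overlapped, which does not show that the counts are alike, and their difference was not tested. HOXC4 has several starts. The RefSeq gene begins at 54016888, where HOXC5 and HOXC6 also begin, and the HOXC4 summit lay 37186 bp above that shared end and 1956 bp below the upper end of the gene. No peak lay at the shared start, and HOXC5 and HOXC6 lay 18.4 and 22.9 kb from the nearest peak.

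HOXA13, a paralog group 13 gene needed for the hands, feet and genital tract, had a peak near the lower limit of the list. It spanned chr7:27199324-27199594, 271 bp, where the narrowest peak of all measured 263 bp. Its edge lay 512 bp and its summit 709 bp downstream of the annotated start. The fold was 3.88 and the q-value 0.00332, from 10 fragments (4.80 to 18.4) over a background of 1.83, and 6.51% of all peaks had a lower fold. The fewest fragments behind any peak of the list were 8. HOTTIP, a long noncoding RNA gene known to act on the 5′ HOXA genes together with WDR5, began 827 bp from the peak.

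The HOTAIRM1 peak spanned chr7:27096358-27096834, 477 bp, 125 bp downstream of an annotated HOTAIRM1 start. Its fold of 6.58 lay close to the median of the list, above 50.04% of all peaks, with a q-value of 6.16e-13. There were 25 fragments (16.2 to 36.9) at the summit, over a background of 2.95, the highest of the 4 peaks. The deposited table names 1 gene per peak, and this peak is therefore not counted for any HOX gene. At all 4 peaks the summit lay downstream of the annotated start, as at 69.5% of the 4905 promoter peaks of the list.

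**Figure D2:**
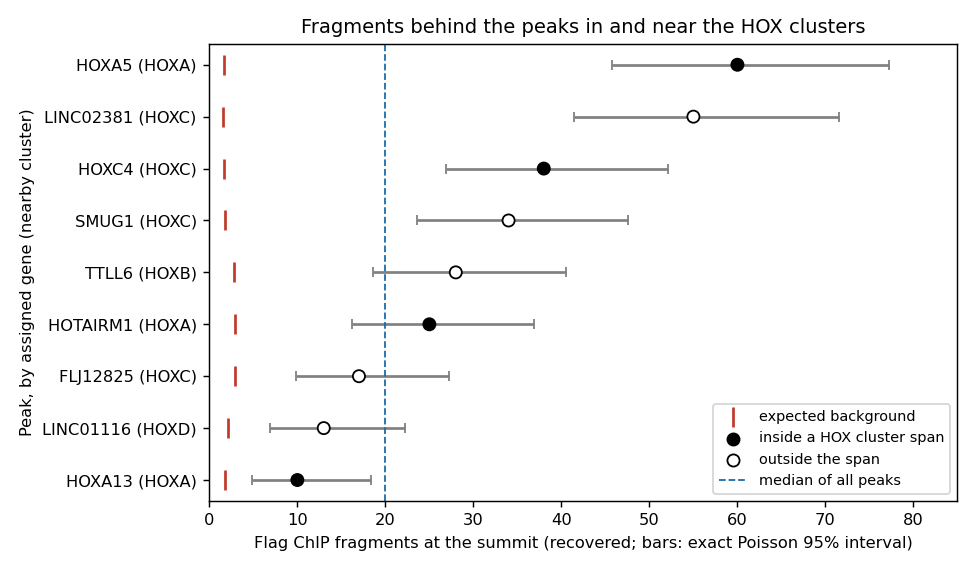
Flag ChIP fragments at the summit of each peak in a HOX cluster span (filled) or nearby (open), with exact Poisson 95% intervals, the expected background (red bars) and the median of all peaks (dashed line, 20 fragments). HOXA5 (60) and HOXC4 (38) lie above the median with their whole interval, and HOXA13 (10) lies below it with its whole interval.

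Counted by position instead of by the deposited gene name, 6 of 39 members lay within 3 kb of a peak, or 15.4% (5.86 to 30.5), beside 27.6% of all protein-coding genes, a value inside the interval. Here a peak over any part of the gene counted as well. The members gained included HOXA3 and HOXA6, both through the HOXA5 peak, and the HOXA cluster then had 5 of 11. Counting only peaks within 1 kb of a start left the same 3 members, beside 19.4% of all protein-coding genes. Requiring the peak to overlap the annotated start of any transcript left HOXA5 and HOXC4, 5.13% of members (0.627 to 17.3) beside 13.4% of all protein-coding genes. The same 2 genes were left with a fold of at least 5, where 18% of all protein-coding genes had an assigned peak and 15.8% a promoter peak. They were also the ones left with a −log10 q of at least 10, where the shares of all protein-coding genes were 13.1% and 11.6%. Of these shares of all protein-coding genes, the 18% with any peak at a fold of at least 5 lay above the interval of the members, as the 23.4% of the whole list did. Each of the others given here lay inside the interval of its own count.

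Distance to the nearest peak differed by cluster, though the range of the HOXC genes overlapped those of HOXA and HOXB. The 11 HOXA genes lay within 19.5 kb of a peak, with a median of 3.52 kb. HOXA2, a patterning gene of the second pharyngeal arch, lay 3520 bp from the HOTAIRM1 peak, just outside a 3 kb limit. HOXA4 and HOXA7 lay 11.2 and 10.3 kb from the HOXA5 peak, and HOXA9, a regulator of blood stem cells and a leukaemia gene, lay 19.1 kb from it. HOXA10 and HOXA11, which are used in the developing uterus and limb, lay 19.5 and 14.1 kb from the HOXA13 peak. These distances are short because 3 peaks stand within a span of 107 kb. Outside it, the next peaks lay 991 kb below, at NFE2L3, and 2364 kb above, at PRR15. Of all 6350 gaps between neighbouring peaks on a chromosome, with a median of 135 kb, 3.94% were at least as wide as the gap above HOXA13. This share counts gaps and not their length, and wide gaps hold a larger part of the genome than their share in number.

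The 9 HOXC genes lay between 0 and 107 kb from a peak, and all 9 were nearest to the HOXC4 peak. Distance rose with the paralog number, from 41.0 kb at HOXC8 and 50.4 kb at HOXC9 through 63.5 kb at HOXC10, 76.1 kb at HOXC11 and 94.8 kb at HOXC12 to 107 kb at HOXC13, the hair and nail gene. This order is that of the genes along the chromosome, with 1 peak at the low-numbered end. Below HOXC13 the next peak lay 496 kb away. Above HOXC4, by contrast, 3 peaks followed within 150 kb of the span. One lay in an intron of the long noncoding RNA gene FLJ12825, 31.1 kb above the span, with a fold of 4.55 and 17 fragments (9.90 to 27.2). The next lay over a start of LINC02381, also noncoding, with a fold of 22.0 and 55 fragments (41.4 to 71.6). The third, with a fold of 12.4, was assigned to the promoter of SMUG1, a DNA repair enzyme gene. The LINC02381 peak had a fragment count with an interval that overlapped that of HOXA5, and their difference was not tested.

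No peak lay in the 200 kb HOXB span, and each HOXB gene was nearest to a peak in an intron of TTLL6, a tubulin-modifying enzyme gene, with a fold of 7.52 and 28 fragments (18.6 to 40.5). HOXB13, a prostate gene that stands apart from the rest of its cluster, was closest, at 38.5 kb. HOXB1 to HOXB9 lay between 141 and 236 kb away. HOXB9 was at 141 kb, HOXB8 at 152 kb, HOXB7 at 156 kb, HOXB6 at 162 kb, HOXB5 at 174 kb, HOXB4 at 189 kb, HOXB3 at 177 kb, HOXB2 at 222 kb and HOXB1 at 236 kb. On the other side of the cluster, a peak in an intron of SKAP1 lay 296 kb below HOXB1. The gap between the SKAP1 and TTLL6 peaks was 535 kb, and 19.8% of gaps in the list were at least as wide, by number and not by length.

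The HOXD genes were farthest from any peak. All 9 lay between 443 kb (HOXD1) and 538 kb (HOXD13, the digit patterning gene) from a peak in an exon of the noncoding gene LINC01116, which had a fold of 4.56 and 13 fragments (6.92 to 22.2). HOXD3, HOXD4, HOXD8, HOXD9, HOXD10, HOXD11 and HOXD12 lay in between, at 461, 481, 501, 509, 514, 518 and 531 kb. On the lower side the next peak, at GPR155, was 1600 kb away. The gap that holds the HOXD cluster was 2147 kb, and 4.54% of gaps were at least as wide, by number and not by length. Wide gaps hold a larger part of the genome, so this share does not show how unusual the location is. A distance of over 400 kb was measured for 9 of the 39 HOX genes (23.1%), all of HOXD, and for 15.1% of all protein-coding genes. That limit lies just below the distance of HOXD1. Over 100 kb there were 19 of the 39 (48.7%), beside 38.7% of all protein-coding genes. The 9 HOXD genes share a gap and a nearest peak, so they are not independent measurements. Over the 39 members, the median distance was 94.8 kb (quartiles 16.2 to 229), beside 53.8 kb (0.309 to 212) for all protein-coding genes. A peak list does not show signal below its threshold, so weaker enrichment at HOXB or HOXD genes was not measured here.

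**Figure D3:**
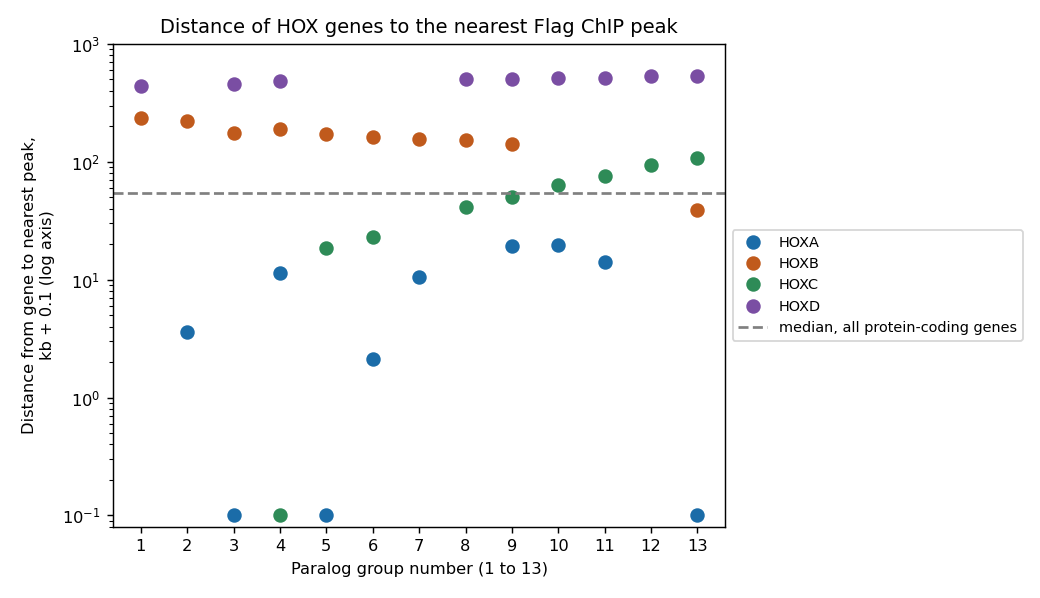
Distance from the HOX genes, with 1 not drawn, to the nearest Flag ChIP peak in kb, with 0.1 added, on a log axis, by paralog group number and cluster (colours), with the median of all protein-coding genes (dashed line, 53.8 kb). The HOXA genes drawn lie below the median and all HOXD genes above it, between 443 and 538 kb.

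Promoter sequence was at hand for 20 of the 39 members, as 27 RefSeq windows of GRCh38.p14 from 250 bases before to 50 after a start. HOXA5 was not among the 20. They are shown for the members whose peak lay away from the window, HOXA13 and HOXC4, and for MNX1, a homeobox gene outside the clusters with a window over a strong peak. Capitals mark the GC box GGGCGG, the site of SP and KLF factors, on either strand, and each line reads 5′ to 3′ along the gene. The HOXA13 window lies at chr7:27200042-27200341 on the minus strand. The HOXC4 window, on the plus strand at chr12:54016638-54016937, is also that of HOXC5. MNX1 has its window at chr7:157010614-157010913 on the minus strand.
HOXA13: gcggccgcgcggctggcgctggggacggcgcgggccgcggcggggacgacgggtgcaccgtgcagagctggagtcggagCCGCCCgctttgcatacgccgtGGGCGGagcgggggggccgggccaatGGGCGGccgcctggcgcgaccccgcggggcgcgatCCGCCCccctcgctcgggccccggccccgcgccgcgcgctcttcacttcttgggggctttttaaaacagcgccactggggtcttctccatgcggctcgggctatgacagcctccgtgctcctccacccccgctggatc
HOXC4: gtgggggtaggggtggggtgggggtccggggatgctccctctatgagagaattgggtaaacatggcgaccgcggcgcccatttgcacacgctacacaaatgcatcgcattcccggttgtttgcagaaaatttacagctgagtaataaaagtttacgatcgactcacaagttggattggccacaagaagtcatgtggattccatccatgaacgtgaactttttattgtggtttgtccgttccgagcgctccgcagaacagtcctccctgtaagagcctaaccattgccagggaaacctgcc
MNX1: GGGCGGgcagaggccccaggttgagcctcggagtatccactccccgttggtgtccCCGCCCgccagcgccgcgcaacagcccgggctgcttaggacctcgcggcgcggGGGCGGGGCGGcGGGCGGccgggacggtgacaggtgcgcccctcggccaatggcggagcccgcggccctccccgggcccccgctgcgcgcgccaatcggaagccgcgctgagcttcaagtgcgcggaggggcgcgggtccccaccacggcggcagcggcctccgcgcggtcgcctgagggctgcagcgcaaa

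None of the 27 HOX windows overlapped a peak, beside 13.5% of the 22132 windows of all protein-coding genes. A count of 0 in 27 allows a share of up to 11.1%, taken as 3 counts of the total, or 12.8% by the exact binomial 95% interval. Several windows belong to the same gene. HOXA5 had no window, and no window stood at the HOXC4 start under its peak. Peaks over these starts could not be counted, so the 0 depends on which windows were at hand. The HOXA13 window came closest, 448 bp from its peak, and had the most CpG dinucleotides of the HOX windows, 44, with 4 GC boxes. The MNX1 window also held 44 CpG, with 5 GC boxes, some of which overlap each other. The shared window of HOXC4 and HOXC5, 36.8 kb from the HOXC4 peak, held 15 CpG and no GC box. At HOXA13 and HOXC4 the peaks thus lay outside these windows, downstream of the start or at another start.

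HOX windows were close to all windows of protein-coding genes in median CpG content, and below windows over a peak. They held a median of 22 CpG (quartiles 14 to 27), beside 21 (7 to 31) in all windows of protein-coding genes and 33 (25 to 40) in the 2993 windows over a peak. The median GC content was 58.0% in HOX windows, 62.3% in all windows and 71.3% in windows over a peak. A GC box stood in 48.1% of HOX windows, in 56.3% of all windows and in 80.6% of windows over a peak. Of the windows with 14 to 27 CpG, the quartile range of the HOX windows, 12.7% overlapped a peak. By cluster, the median CpG count was 21.5 in 16 HOXA windows and 24.5 in 8 HOXD windows. The 1 HOXB window, that of HOXB1, held 11 CpG, and the 2 HOXC windows, which share 1 position, held 15. These are descriptions of letters, and a match is not a measured binding site.

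**Figure D4:**
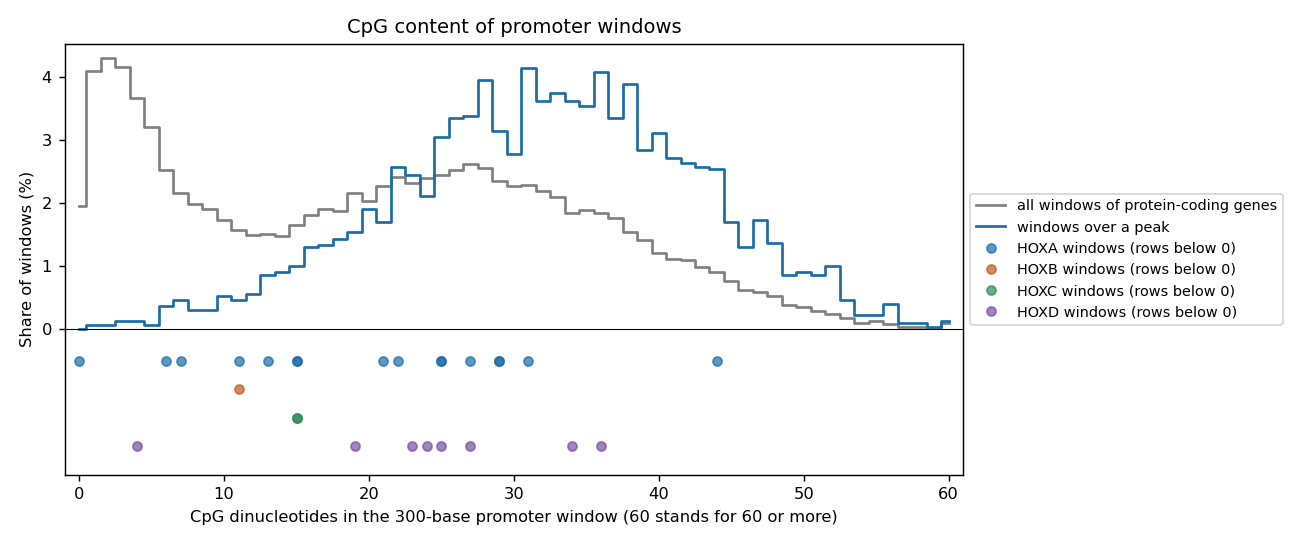
Number of CpG dinucleotides in promoter windows of 300 bases, as the share of windows in percent for all protein-coding genes (grey) and for windows over a peak (blue), with each HOX window as a point below 0 in a row for its cluster. The HOX windows span 0 to 44 CpG, and windows over a peak have a median of 33.

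The clusters also hold noncoding genes. Of 24 such genes on a list of antisense, long noncoding and microRNA genes, 1 had an assigned peak, HOTAIRM1. This is 4.17% (0.105 to 21.1), beside 2.64% of all long noncoding and microRNA genes, a share near the background. By position, the HOXA5 peak also overlapped HOXA-AS3, and HOTTIP lay 827 bp from the HOXA13 peak. The share of all noncoding genes by position was not computed. HOTAIR, the noncoding RNA of the HOXC cluster known for its ties to Polycomb, lay 78.8 kb from the HOXC4 peak. HOXA11-AS, the antisense partner of HOXA11, lay 10.03 kb from the HOXA13 peak. HAGLR, in the HOXD cluster, lay 445 kb from the LINC01116 peak.

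The microRNAs embedded in the clusters, all on that list, had no assigned peak, beside 2.64% of all long noncoding and microRNA genes. They are shown with bases 2 to 8, the seed that pairs with targets, in capitals, from RefSeq (GRCh38.p14), because miR-196 is known to repress HOX messages and members of the miR-10 and miR-196 families lie in more than 1 cluster. The first pair share the seed AGGUAGU, and the others have seeds of their own.
miR-196a-5p: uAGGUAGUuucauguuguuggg
miR-196b-5p: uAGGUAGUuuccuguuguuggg
miR-10a-5p: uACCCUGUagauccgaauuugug
miR-615-3p: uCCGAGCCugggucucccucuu

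MIR196B, in the HOXA cluster, lay 26.1 kb from the HOXA5 peak. MIR196A2 and MIR615, in the HOXC cluster, lay 61.9 and 19.7 kb from the HOXC4 peak. MIR10A, beside HOXB4, lay 187 kb from the TTLL6 peak, and MIR196A1, beside HOXB9, lay 135 kb from it. MIR10B, beside HOXD4, lay 483 kb from the LINC01116 peak. Like the protein-coding members around them, the microRNA gene of HOXA was nearer to a peak than those of HOXB or HOXD. In HOXC, however, MIR615 was nearer still, and MIR196A2 was farther than the HOXA gene.

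Lists of partners, relatives and regulators of HOX genes were counted in the same way, and being short they have wide intervals. Of 9 cofactor genes of the PBX, MEIS and PKNOX families, which bind DNA together with HOX proteins, 2 had a peak (22.2%, 2.81 to 60.01, beside 23.4% of protein-coding genes). PBX3, with a fold of 7.29 at its promoter, was among them, and the MEIS and PKNOX genes had none. Of 13 ParaHox and extended Hox genes, relatives outside the clusters, 4 had a peak (30.8%, 9.09 to 61.4). The 23.4% of protein-coding genes lies inside that interval, and only 2 of the 13 had a promoter peak. With a −log10 q of at least 10, 1 was left (7.69%, 0.195 to 36.0), beside 13.1% of protein-coding genes. MNX1, a motor neuron and pancreas factor, led with 31.6, followed by the intestinal factors CDX2 (5.76, 5934 bp from the start) and CDX1 (4.66, in an intron) and by GBX1 (3.94). EVX1 and EVX2, which lie beside the HOXA and HOXD clusters, had no peak.

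Of 18 genes that flank the clusters, 4 had a peak (22.2%, 6.41 to 47.6), near the 23.4% of all protein-coding genes. They were SMUG1, SKAP1, TTLL6 and NFE2, with folds of 12.4, 9.90, 7.52 and 5.11. Each lies beside the HOXB or HOXC cluster. Among 16 genes of retinoic acid signalling, which switches on the low-numbered HOX genes, 4 had a peak (25%, 7.27 to 52.4), also near 23.4%. The receptor genes RXRA (17.4) and RARG (16.5) had the highest folds, then the binding protein gene CRABP1 (6.40) and the receptor gene RARB (4.92). Among 24 Polycomb and trithorax genes, 12 had a peak (50%, 29.1 to 70.9), the one list with an interval wholly above the 23.4% of all protein-coding genes. With a −log10 q of at least 10 this no longer held, as 6 had a peak (25%, 9.77 to 46.7) beside 13.1%. The methyltransferase genes KMT2A (755), KMT2B (32.5) and EZH2 (23.4) and the KMT2 partner gene WDR5 (13.4) were highest. That list was drawn up with the KMT2A and KMT2B peaks already known, so its share is not independent evidence.

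**Figure D5:**
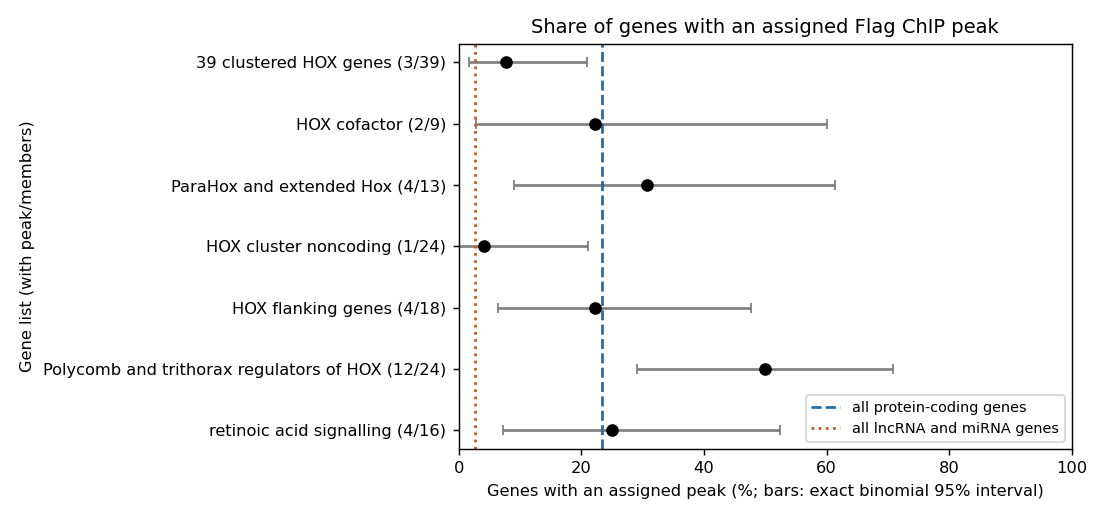
Share of genes with an assigned peak in percent (points) with exact binomial 95% intervals (bars) for the 39 HOX genes and 6 related lists, beside all protein-coding genes (dashed line, 23.4%) and all long noncoding and microRNA genes (dotted line, 2.64%). The HOX genes lie at 7.69% and the Polycomb and trithorax genes at 50%.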

How the data were processed

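Build hg38 and the tools MACS2 2.2.7.1, Bowtie2 2.4.1, deepTools 3.5.0 and SAMtools are named in the submitters' processing notes, which give them no roles. The fold, which is the ratio of ChIP to background signal at a summit, and the p-value and q-value of each peak are the authors' deposited values from 1 Flag ChIP and 1 input library. Gene, class and distance to a start are the authors' deposited annotation, made with a tool not given in the sources used here. Total reads per library were not used here.

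Depth was read from the peaks. From each fold and p-value, the whole number of ChIP fragments at the summit and the background expected there were computed, assuming Poisson counts and adding a pseudocount of 1 to both. The p-value was above 0 at 6302 peaks, and 6293 of these gave whole fragments within 0.001 on the −log10 p scale. This is an inference from that model. Data simulated under the same model checked the arithmetic only, and cannot show that the deposited values follow the model. The Poisson intervals leave out that a summit is chosen as the peak's maximum.

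Members were matched by symbol, and lists by the gene identifiers of a RefSeq table of GRCh38.p14, which has the coordinates of hg38. Shares of genes have exact binomial (Clopper-Pearson) 95% intervals. No test was made. The rule for named genes takes all 39 members and up to 4 genes of each related list, by fold; some results it takes are not reported here. Members and lists were chosen with earlier results of these data known. Alternatives were a fold of at least 5, a −log10 q of at least 10, other limits of distance, gene assignment by position, and other ways of counting peaks in a span. Python 3.11.15, pandas 2.3.3, scipy 1.17.1 and matplotlib 3.10.9 were used.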

Additional observations from a re-analysis of the deposited data

How the results depend on the processing

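Of 43 alternatives over 15 results, 34 left a count within 1.5 times, or the median fold of 14.8 inside its counting interval, and 9 moved a count by more. Assigning genes by position, as a peak of any class over a gene or within 3 kb of it, gave 6 members in place of the 3 with any peak or a promoter peak, and 5 HOXA members. With a fold of at least 5 or a −log10 q of at least 10, HOXA13 dropped out, which left 1 HOXA member. A fold of at least 5 left 2 ParaHox and extended Hox genes. A −log10 q of at least 10 left 1 of them, 6 Polycomb and trithorax genes and 2 retinoic acid genes. Stricter thresholds keep fewer peaks by construction. HOXB and HOXD stayed at 0 members in the alternatives run for them. This was settled beforehand, as stricter thresholds add no peak and the nearest peaks lay 38.5 and 443 kb away. The median fold of promoter peaks only, or of the highest peak of each member, was also bound to stay, as the same 3 peaks were used. Some of the 34 could therefore not have moved. Alternatives for the related lists were chosen after seeing the data. No paired analysis was possible because neither the ChIP nor the input was replicated. The HOXA13 peak rests on 10 fragments, and a site with less signal than the list's threshold does not appear in it.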
